A study of Mus musculus with 6 samples.

Results

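The genes described here are those that make haem, break it down, move and store iron, and build iron-sulphur clusters. They were taken from a list of 38 genes, and 36 of them had a probe set assigned to that gene alone, out of 19661 genes measured in the same way. Ncoa4 and Isca1 had none and were not analysed here. Where a gene had several probe sets, as Flvcr1 did, the probe set with the highest mean over all arrays stood for it.

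Gene expression had been measured on arrays of RNA from mouse bone marrow progenitors of the B6.129 strain, 3 arrays from mice that carried a Fog1 knock-in on both alleles (Fog1ki/ki) and 3 from mice with intact Fog1 alleles (Fog1+/+). The cells were megakaryocyte-erythroid progenitors, sorted as Kit-positive cells that carried no lineage antigens, Sca1 or CD34 and little FcγRII/III. The labels call the arrays biological replicates and give neither the age or sex of the mice nor the number of mice behind each array, so the p-values measure the spread between these arrays. FOG1 is the product of the gene Zfpm1 and works as a partner of GATA1, the main transcription factor of erythroid cells. What the knock-in alters is not stated in the labels. As known of this study beyond the labels, it breaks the contact of FOG1 with the NuRD chromatin complex, and the question was which genes need it.

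Haem is made in steps that begin and end in the mitochondrion and pass through the cytosol, and red cell precursors make most of the body's haem for haemoglobin. They take up iron through the transferrin receptor, store the surplus in ferritin, and build part of it into the iron-sulphur clusters that many enzymes carry. Iron regulatory proteins bind a hairpin in the transcripts of several of these genes when iron is short, which blocks the translation of ferritin and of the erythroid haem enzyme and stabilises the transferrin receptor transcript. GATA1 is known to drive many of these genes as erythroid cells mature.

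The arrays had similar medians over all genes, 6.16 to 6.31 in Fog1ki/ki and 6.19 to 6.20 in Fog1+/+ on the log2 scale. Their upper quartiles ran from 7.82 to 7.93 and from 7.85 to 7.88 in the same order. Array pairs had correlations across genes of 0.988 to 0.994. Zfpm1 itself measured 7.65, 7.50 and 7.73 on the Fog1ki/ki arrays and 7.57, 7.37 and 7.80 on the Fog1+/+ arrays, a level that does not check the labels of a knock-in. Replicate 3 of each genotype had low values of the Y-linked genes Eif2s3y, Uty and Kdm5d (at most 5.32, against at least 8.18 on the other 4 arrays), and the counts of calls over the haem and iron genes, over all genes and in the lists of other genes are also given without both of these arrays. Markers of the sorted cells fitted the label in that Kit (9.91 in Fog1ki/ki and 10.29 in Fog1+/+), Gata1 (8.27 and 8.56 in the same order), Klf1 and Epor were measured well above the arrays' medians, while Cd34 lay below the lower quartile on all 6 arrays. Of the FcγRII/III genes, Fcgr2b measured 5.02 and 4.73 and Fcgr3 5.42 and 5.30 in the same order. The genotypes did not overlap in Kit and Fcgr2b and overlapped in Fcgr3 and Cd34. Of these 4 gate genes 0 passed in limma (adjusted p = 0.232 for Kit and 0.248 for Fcgr2b). Of 24 mast cell genes 8 passed the test as higher in Fog1ki/ki and 16 did not pass, where 0.376% of all genes passed as higher. The mean log2 level of the list ran from 6.94 to 7.42 on the Fog1ki/ki arrays and from 6.24 to 6.27 on the Fog1+/+ arrays. Kit, also on that list, was the 1 gene of the 24 with a negative difference. Of 19 megakaryocyte genes 1 passed, Ltbp1, as higher in Fog1ki/ki by 1.06 on the log2 scale. The mean log2 level of that list ran from 6.51 to 6.57 on the Fog1ki/ki arrays and from 6.31 to 6.33 on the Fog1+/+ arrays. The median log2 difference of the list was 0.12, and 5 of the 19 were negative. After Ltbp1 the largest differences were those of Pf4 (0.97) and Plek (0.83), which did not pass. Both lists were chosen with earlier results of these data known. Without both arrays with low Y-linked values 3 mast cell genes and 1 megakaryocyte gene passed in limma, all higher in Fog1ki/ki. Over all 19661 genes 24 passed in that setting. The part of these shifts in the results below was not tested.

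Most of the haem and iron genes had similar levels in both genotypes, and 1 of the 36 passed the test. Aco1, which encodes iron regulatory protein 1, fell by 0.65 on the log2 scale in Fog1ki/ki, which is 1.57-fold lower. The other 35 did not pass limma's test at a Benjamini-Hochberg adjusted p under 0.05 over all 19661 genes, a test that called 0.773% of all genes (0.397% as lower in Fog1ki/ki and 0.376% as higher). At an unadjusted p under 0.05 there were 2 higher (Blvra and Ppox) and 4 lower (Aco1, Isca2, Alad and Flvcr1), where 9.57% of all genes reached that level. In 8 of the 36 genes no Fog1ki/ki array overlapped the Fog1+/+ arrays, 4 higher (Blvra, Ppox, Cybrd1 and Fbxl5) and 4 lower in Fog1ki/ki (Aco1, Isca2, Alad and Flvcr1), as was so in 14.8% of all genes. Without both arrays with low Y-linked values 0 of the 36 genes passed in limma, with 24 genes passing in all. In that setting 5 of the 36 and 1222 of all 19661 genes had an unadjusted p under 0.05. In sorted cells measured in bulk, less RNA per cell and fewer cells of a kind cannot be told apart.

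The median log2 difference over the 36 genes was -0.05, against 0.02 over all genes tested. The 95% interval of the difference, taken gene by gene in limma, excluded a 2-fold change in either direction for all 36 genes, and for 98.2% of all genes. It lay within 0.5 log2 units of 0 in 27 of them, 75% against 81.3% of all genes. The replicate arrays set this precision, with a median SE of 0.11 over the 36 genes and also over all genes. The intervals hold for the array values, and differences of dim genes are compressed after RMA. Heph, Flvcr2, Ftmt and Hmox1 had Fog1+/+ means of 4.69, 5.17, 5.17 and 5.54, below or near the lower quartiles of the Fog1+/+ arrays (5.01 to 5.04). For these dim genes a 2-fold change of the transcript is not excluded.

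**Figure D1:**
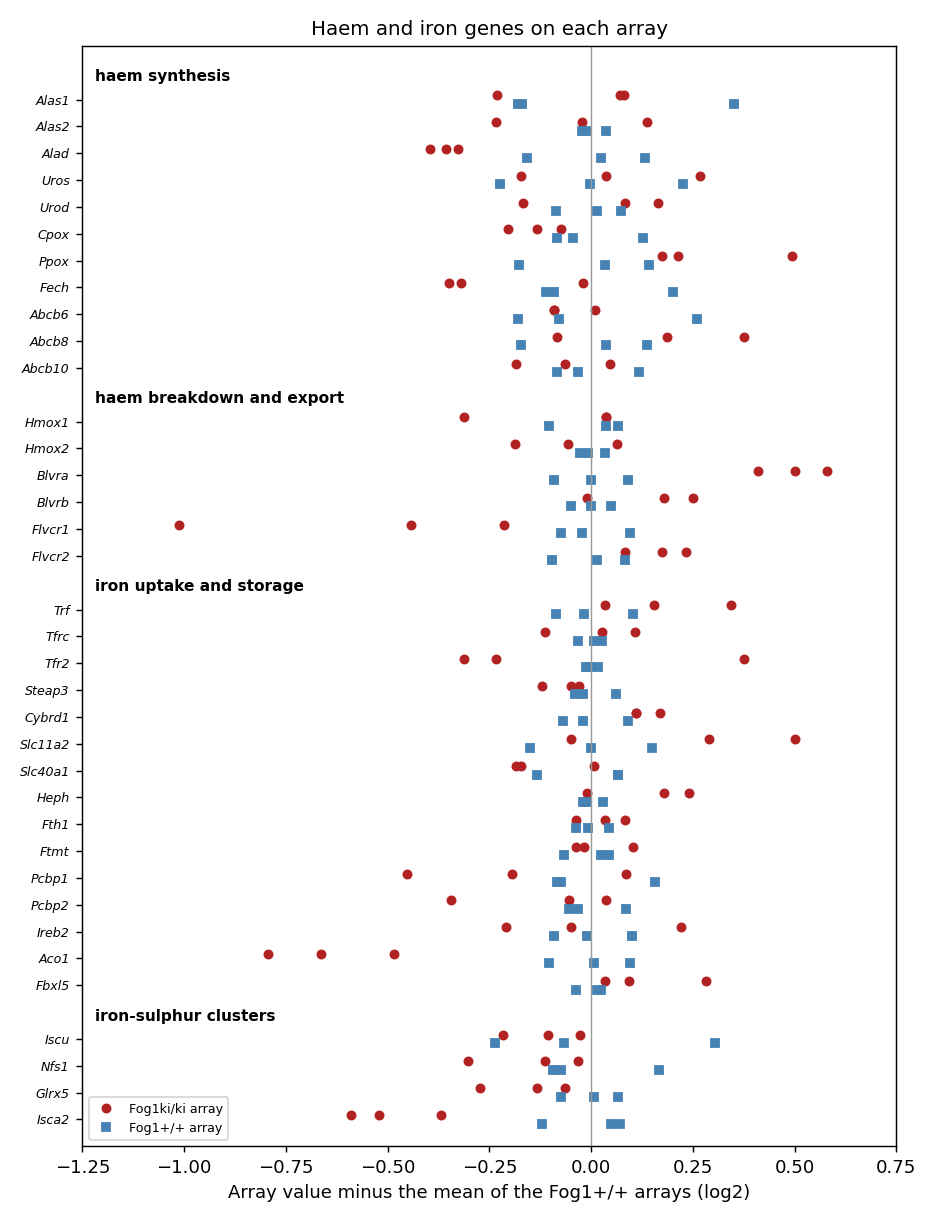
Value of each of the 36 genes on each array minus the mean of the 3 Fog1+/+ arrays (log2 units, horizontal axis), with Fog1ki/ki arrays as red circles above the Fog1+/+ arrays as blue squares. Aco1, Isca2, Alad and Flvcr1 have all Fog1ki/ki arrays to the left of the Fog1+/+ arrays, Blvra, Ppox, Cybrd1 and Fbxl5 have them to the right, and the other 28 genes overlap.

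Promoters of 4 of these genes are shown because they carry the clearest differences (Aco1, Isca2 and Blvra) or because the gene is a well known target of GATA1 in haem synthesis (Alas2). Each is the 250 bases before the gene's start, 5′ to 3′ on the gene's strand, from RefSeq on GRCm38.p6, and 26 of the 36 genes had such sequences. Capitals mark the GATA motifs searched, AGATAA and TGATAA with their reverse complements TTATCT and TTATCA. The windows lie at chr4:40143015-40143264 for Aco1, chr12:84773020-84773269 for Isca2, chr2:127070407-127070656 for Blvra and chrX:150547167-150547416 for Alas2, all on the + strand.
Aco1: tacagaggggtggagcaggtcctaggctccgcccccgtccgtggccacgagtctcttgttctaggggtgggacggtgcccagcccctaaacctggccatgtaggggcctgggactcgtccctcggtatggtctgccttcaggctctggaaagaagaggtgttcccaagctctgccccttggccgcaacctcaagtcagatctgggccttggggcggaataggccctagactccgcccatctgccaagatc
Isca2: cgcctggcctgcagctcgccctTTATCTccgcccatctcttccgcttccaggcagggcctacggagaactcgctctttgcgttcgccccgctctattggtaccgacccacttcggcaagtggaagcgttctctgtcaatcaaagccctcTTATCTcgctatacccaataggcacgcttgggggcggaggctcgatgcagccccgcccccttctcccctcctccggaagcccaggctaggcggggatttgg
Blvra: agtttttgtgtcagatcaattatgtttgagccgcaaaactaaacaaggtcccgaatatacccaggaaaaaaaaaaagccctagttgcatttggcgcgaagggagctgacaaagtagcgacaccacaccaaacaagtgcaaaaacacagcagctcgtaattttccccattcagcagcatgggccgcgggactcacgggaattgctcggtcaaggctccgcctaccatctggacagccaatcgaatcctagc
Alas2: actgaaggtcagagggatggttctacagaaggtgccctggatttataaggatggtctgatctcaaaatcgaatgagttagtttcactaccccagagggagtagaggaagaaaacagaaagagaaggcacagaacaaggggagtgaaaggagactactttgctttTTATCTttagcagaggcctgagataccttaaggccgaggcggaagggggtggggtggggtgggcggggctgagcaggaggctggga
The Isca2 window held TTATCT at 228 and at 101 bases before the start, and the Alas2 window held it at 86 bases before the start. The Aco1 and Blvra windows held none of these letters. Of the 40 windows of the 26 genes, 6 (15%) held a motif, in Steap3, Tfr2, Uros, Isca2, Cpox and Alas2, and 16.6% of all 32851 windows did. A match is only a description of the sequence, and the arrays give no binding data.

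Over all genes 0.773% passed the test in limma and 9.57% had an unadjusted p under 0.05, the shares that stand beside the counts of each step. Of the 11 genes of haem synthesis, 0 passed the test in limma (1 higher and 1 lower with an unadjusted p under 0.05), and the median log2 difference was -0.04. They comprise 8 enzymes and 3 mitochondrial transporters of the ABC family. Alas2, the erythroid form of the enzyme that commits glycine to haem, measured 7.07, 6.86 and 7.23 on the Fog1ki/ki arrays and 7.13, 7.08 and 7.07 on the Fog1+/+ arrays. The groups overlapped, with a log2 difference of -0.04 (95% interval -0.29 to 0.21, limma adjusted p = 0.950). Alas2 lies on the X chromosome, and the arrays with low Y-linked values held its highest value in Fog1ki/ki and its lowest in Fog1+/+. Alas1, the form used by all other cells, had a log2 difference of -0.03 (95% interval -0.39 to 0.33).

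Alad, which joins the products of that step into porphobilinogen, was the haem enzyme with the smallest p. It measured 10.25, 10.29 and 10.32 on the Fog1ki/ki arrays and 10.67, 10.49 and 10.78 on the Fog1+/+ arrays. All Fog1ki/ki values lay below all Fog1+/+ values, and the log2 difference of -0.36 (SE 0.10, unadjusted p = 0.0062) did not pass over all genes (limma adjusted p = 0.230). Uros and Urod, which close the porphyrin ring and trim its side chains, had log2 differences of 0.04 and 0.03.

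Cpox, Ppox and Fech carry out the last steps, the oxidation of the ring and the insertion of iron. Ppox measured 8.10, 7.78 and 7.82 on the Fog1ki/ki arrays and 7.43, 7.75 and 7.64 on the Fog1+/+ arrays. The groups were parted by a narrow gap (7.78 against 7.75), and the log2 difference of 0.29 (SE 0.12, unadjusted p = 0.0424) did not pass over all genes (limma adjusted p = 0.496). Fech, the ferrochelatase, measured 7.70, 7.37 and 7.40 on the Fog1ki/ki arrays and 7.63, 7.92 and 7.61 on the Fog1+/+ arrays, a log2 difference of -0.23 (SE 0.13). Cpox measured 11.40, 11.53 and 11.47 on the Fog1ki/ki arrays and 11.56, 11.73 and 11.52 on the Fog1+/+ arrays, a log2 difference of -0.14 (SE 0.10). In both genes the groups overlapped. The transporters Abcb6, which is tied to porphyrin transport, Abcb8, which is tied to iron export from mitochondria, and Abcb10, which is needed for haem synthesis in erythroid cells, had log2 differences of -0.06, 0.16 and -0.07.

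Haem breakdown and export was represented by 6 genes, with a median log2 difference of 0.04. Of these 0 passed the test in limma (0.773% of all genes did). At an unadjusted p under 0.05 there was 1 higher and 1 lower (9.57% of all genes in either direction). Blvra, the biliverdin reductase that turns the breakdown product biliverdin into bilirubin, measured 9.50, 9.42 and 9.33 on the Fog1ki/ki arrays and 8.83, 9.01 and 8.92 on the Fog1+/+ arrays. Every Fog1ki/ki array lay above every Fog1+/+ array, with a log2 difference of 0.50 (SE 0.10, unadjusted p = 0.000585), and it did not pass over all genes (limma adjusted p = 0.0630). It passed where quantile normalization was repeated on the deposited values (log2 difference 0.57, limma adjusted p = 0.0214). Blvrb, the other biliverdin reductase, which is abundant in red cells, measured 10.10, 9.91 and 10.17 on the Fog1ki/ki arrays and 9.97, 9.92 and 9.87 on the Fog1+/+ arrays, with overlap and a log2 difference of 0.14 (SE 0.10).

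Flvcr1, a transporter described as a haem exporter and needed for red cell production in mice, measured 8.22, 7.99 and 7.42 on the Fog1ki/ki arrays and 8.53, 8.36 and 8.41 on the Fog1+/+ arrays. Fog1ki/ki replicate 3 was the lowest, and the Fog1ki/ki arrays varied more (SD 0.41) than the Fog1+/+ arrays (SD 0.09). The log2 difference of -0.56 (SE 0.18, unadjusted p = 0.0142) did not pass over all genes (limma adjusted p = 0.330), and without Fog1ki/ki replicate 3 it was -0.33. A dimmer probe set of the same gene had 6.93, 6.99 and 6.77 on the Fog1ki/ki arrays and 6.79, 6.94 and 7.22 on the Fog1+/+ arrays. There the groups overlapped, with a log2 difference of -0.09 (SE 0.13), so the probe sets disagree on the size. Its relative Flvcr2 measured 5.25, 5.34 and 5.40 on the Fog1ki/ki arrays and 5.25, 5.07 and 5.18 on the Fog1+/+ arrays, a log2 difference of 0.16 (SE 0.09).

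The haem oxygenases open the haem ring and free its iron. Hmox1, the form induced by haem and stress, measured 5.23, 5.58 and 5.58 on the Fog1ki/ki arrays and 5.58, 5.44 and 5.61 on the Fog1+/+ arrays, and Hmox2 is the constant form. Their log2 differences were -0.08 (95% interval -0.35 to 0.19) and -0.06 (95% interval -0.28 to 0.16). Macrophages that recycle red cells are known for high Hmox1 and Slc40a1. Of 19 macrophage markers 0 passed in limma, where 0.773% of all genes passed. At an unadjusted p under 0.05 there were 1 higher and 0 lower (9.57% of all genes in either direction), and 0 without both arrays with low Y-linked values. The mean log2 level of the markers ran from 5.04 to 5.21 on the Fog1ki/ki arrays and from 5.12 to 5.19 on the Fog1+/+ arrays. Below the lower quartile on all 6 arrays lay 8 of the 19, Adgre1, Spic, Mrc1 and Cd5l among them, while Cd68 lay above the median of each array (6.63 to 7.10 in Fog1ki/ki and 6.72 to 7.19 in Fog1+/+).

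Iron uptake, storage and sensing had 15 measured genes, with a median log2 difference of 0.01. Of these 1 fell, 0 rose and 14 did not pass in limma, where 0.773% of all genes passed. The gene that fell was Aco1, which measured 7.95, 7.64 and 7.77 on the Fog1ki/ki arrays and 8.53, 8.44 and 8.33 on the Fog1+/+ arrays. The highest Fog1ki/ki array lay below the lowest Fog1+/+ array, and the means were 7.79 ± 0.16 and 8.43 ± 0.10 in the same order (SD, n = 3 each, limma adjusted p = 0.0371). Its protein is a cytosolic aconitase when it holds an iron-sulphur cluster and binds iron-responsive hairpins when it does not. Leaving out Fog1ki/ki replicate 2, Fog1ki/ki replicate 3 or any Fog1+/+ array ended the call (limma adjusted p 0.111 to 0.168), while without Fog1ki/ki replicate 1 it was 0.0275. It was also lost with each array centred on its median (limma adjusted p = 0.0564), with a term for the arrays with low Y-linked values (0.0580) and without both of those arrays (0.292). Over the 16 alternative settings its log2 difference ran from -0.73 to -0.57.

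Ireb2, which encodes the other iron regulatory protein, measured 9.70, 9.27 and 9.43 on the Fog1ki/ki arrays and 9.39, 9.47 and 9.58 on the Fog1+/+ arrays. The groups overlapped, with a log2 difference of -0.01 (95% interval -0.29 to 0.27). Fbxl5, the iron-sensing ubiquitin ligase subunit that removes the Ireb2 protein, had a log2 difference of 0.14 (SE 0.10).

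The known targets of the iron regulatory proteins did not pass the test. The arrays measure RNA, so a block on translation, as known for ferritin, cannot be seen in them. Tfrc, the transferrin receptor through which red cell precursors take up iron, measured 11.73, 11.51 and 11.65 on the Fog1ki/ki arrays and 11.59, 11.65 and 11.63 on the Fog1+/+ arrays. Fth1, the ferritin heavy chain, measured 12.54, 12.49 and 12.42 on the Fog1ki/ki arrays and 12.42, 12.45 and 12.50 on the Fog1+/+ arrays. Both pairs of groups overlapped, with log2 differences of 0.01 (95% interval -0.21 to 0.22) for Tfrc and 0.03 (95% interval -0.17 to 0.22) for Fth1. Ferritin has processed copies in the genome that a probe set may not tell apart. Slc40a1, the iron exporter ferroportin, measured 9.27, 9.08 and 9.09 on the Fog1ki/ki arrays and 9.33, 9.13 and 9.33 on the Fog1+/+ arrays, a log2 difference of -0.12 (SE 0.10). Slc11a2, which carries iron out of the endosome, measured 9.42, 8.87 and 9.21 on the Fog1ki/ki arrays and 8.77, 9.07 and 8.92 on the Fog1+/+ arrays. Its Fog1ki/ki arrays reached higher but overlapped the others, with a log2 difference of 0.25 with an SE of 0.15 (limma adjusted p = 0.663).

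Among the remaining genes of iron uptake, Tfr2, a second transferrin receptor that associates with the erythropoietin receptor, was uneven among the Fog1ki/ki arrays. It measured 8.18, 7.49 and 7.57 there and 7.80, 7.79 and 7.82 on the Fog1+/+ arrays, so that Fog1ki/ki replicate 1 lay above and the others below all Fog1+/+ arrays. The log2 difference of -0.06 turned to -0.27 without Fog1ki/ki replicate 1. Trf, the plasma iron carrier transferrin, measured 5.96, 6.08 and 6.27 on the Fog1ki/ki arrays and 6.03, 5.91 and 5.84 on the Fog1+/+ arrays. Cybrd1, a ferric reductase of the gut, measured 6.12, 6.06 and 6.06 on the Fog1ki/ki arrays and 5.93, 5.88 and 6.04 on the Fog1+/+ arrays. The log2 differences of Trf and Cybrd1 were 0.18 (SE 0.11) and 0.13 (SE 0.09). Steap3, the endosomal reductase of red cell precursors, had a log2 difference of -0.07, the iron chaperones Pcbp1 and Pcbp2 had ones of -0.19 and -0.12, and mitochondrial ferritin, Ftmt, had one of 0.02. Heph, a copper enzyme that oxidises iron for export from gut cells, had a log2 difference of 0.14 and lay below the lower quartile on all 6 arrays.

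**Figure D2:**
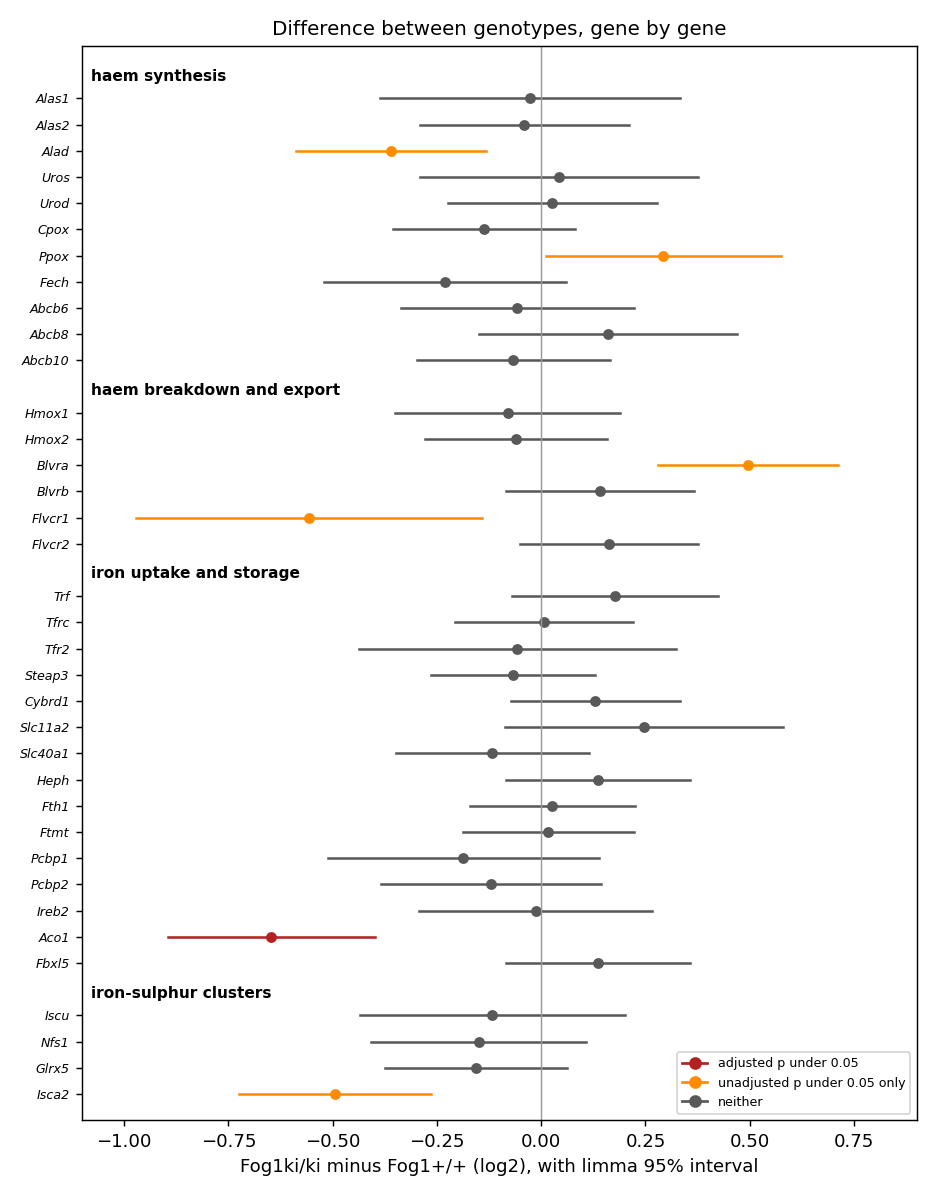
Difference between genotypes (Fog1ki/ki minus Fog1+/+, log2) for each of the 36 genes, with the 95% interval from limma as a line. Aco1 (red, -0.65) is the only gene past an adjusted p of 0.05, Alad, Ppox, Blvra, Flvcr1 and Isca2 (orange) reach only an unadjusted p under 0.05, and the intervals of the 30 other genes cross 0.

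Of the 4 measured genes of iron-sulphur cluster assembly, 0 passed the test in limma, where 0.773% of all genes passed. At an unadjusted p under 0.05, 1 of the 4 was lower, as were 901 of all 19661 genes. Each of the 4 had a negative log2 difference, and the median was -0.15. This sign was seen in 43.7% of all genes, a share that includes dim genes, while all 4 lay above the median on all 6 arrays. With quantile normalization repeated the median was -0.11. The log2 differences were then -0.06 for Glrx5, -0.04 for Iscu, -0.15 for Nfs1 and -0.45 for Isca2. Isca2, which helps to make the clusters of mitochondrial enzymes, measured 8.20, 8.05 and 7.98 on the Fog1ki/ki arrays and 8.64, 8.62 and 8.45 on the Fog1+/+ arrays. All Fog1ki/ki arrays lay below all Fog1+/+ arrays, with a log2 difference of -0.49 (SE 0.10, unadjusted p = 0.00094), and the gene did not pass over all genes (limma adjusted p = 0.0876) or in any of the 16 alternative settings (limma adjusted p from 0.0590 to 0.381).

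The other 3 genes overlapped between genotypes. Glrx5, the glutaredoxin that hands on new clusters and is needed for red cell haem synthesis in zebrafish, measured 11.18, 10.97 and 11.11 on the Fog1ki/ki arrays and 11.17, 11.25 and 11.31 on the Fog1+/+ arrays. Nfs1, which draws the sulphur from cysteine, measured 7.80, 7.72 and 7.53 on the Fog1ki/ki arrays and 8.00, 7.76 and 7.74 on the Fog1+/+ arrays. Iscu, the scaffold on which the cluster forms, measured 9.17, 8.98 and 9.09 on the Fog1ki/ki arrays and 9.50, 8.96 and 9.13 on the Fog1+/+ arrays. Their log2 differences were -0.16 (SE 0.10), -0.15 (SE 0.11) and -0.12 (SE 0.14). In Iscu the highest of all values was that of Fog1+/+ replicate 1, and without it the log2 difference was 0.04.

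**Figure D3:**
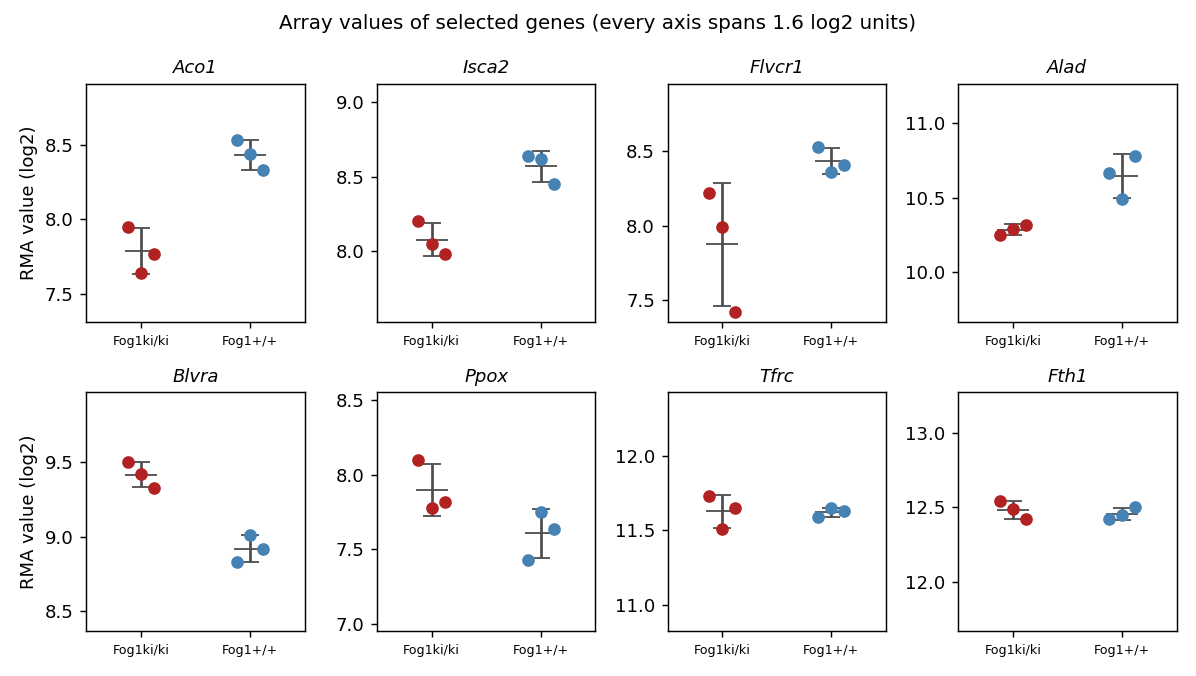
RMA values (log2) on each array for 8 of the genes, Fog1ki/ki in red to the left of Fog1+/+ in blue, with the mean and SD of 3 arrays as bars and every vertical axis spanning the same 1.6 log2 units. The genotypes are apart in Aco1, Isca2, Flvcr1, Alad, Blvra and Ppox and overlap in Tfrc and Fth1.

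Related genes were also set against each other within arrays, as the change in the difference between both members of a pair, for 7 pairs chosen after their values were seen. In 3 of them the genotypes did not overlap. Aco1 was lower relative to Ireb2 by a log2 difference of -0.63, Flvcr1 relative to Flvcr2 by -0.72, and Blvra was higher relative to Blvrb by 0.36. The Flvcr1 pair rests on the brighter probe set of that gene. Its dimmer probe set, with a log2 difference of -0.09 and overlap between genotypes, was not set against Flvcr2. Each of these 3 pairs had an exact two-sided permutation p = 0.1, the smallest that 3 against 3 arrays allow, and p = 0.233 adjusted over the 7 pairs. Aco1, Flvcr1 and Blvra did not overlap between genotypes on their own, and the pairs were chosen with this known. These p-values are therefore a description of the pairs and no separate support for the differences of these genes. The pairs Alas1 and Alas2, Hmox1 and Hmox2, Tfrc and Tfr2, and Pcbp1 and Pcbp2 overlapped, with values between -0.07 and 0.06.

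The Fog1ki/ki arrays were not alike in these genes. Fog1ki/ki replicate 1 held the highest Fog1ki/ki value in 24 of the 36 genes (66.7%), where it did so in 31.8% of all genes. Fog1ki/ki replicate 2 held the lowest in 19 of them (52.8%), where it did so in 29.9% of all genes. Over all genes, replicate 1 had the highest upper quartile of the Fog1ki/ki arrays (7.93, against 7.82 and 7.82). Its median was the lowest of them (6.16, against 6.27 and 6.31). All 11 haem synthesis genes and 11 of the 15 iron uptake genes lay above the median on all 6 arrays. The shares over all genes include dim genes, and the part of this wider spread in the counts was not tested. The mean over the 15 iron uptake genes was 8.52, 8.32 and 8.44 on the Fog1ki/ki arrays and 8.43, 8.44 and 8.48 on the Fog1+/+ arrays, so that the Fog1+/+ arrays lay between the Fog1ki/ki extremes. Over the 11 haem synthesis genes the means were 8.27, 8.14 and 8.18 on the Fog1ki/ki arrays and 8.13, 8.28 and 8.29 on the Fog1+/+ arrays. Replicate 1 was also the Fog1ki/ki array with the highest mean over 33 erythroid genes (8.67, 8.56 and 8.61, against 8.64, 8.70 and 8.71 on the Fog1+/+ arrays) and over the 24 mast cell genes (7.42, 7.04 and 6.94). The part of either in the values of that array was not tested. Of the erythroid genes 1 fell, Xk, and 32 did not pass, where 0.773% of all genes passed. Without both arrays with low Y-linked values 0 erythroid genes passed in limma. There 2 of the 33 and 1222 of all 19661 genes had an unadjusted p under 0.05.

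A wider list of 56 further genes of the same pathways held 50 with a probe set of their own, of which 1 fell, 0 rose and 49 did not pass in limma, with a median log2 difference of -0.02. Over all genes 0.773% passed. Tmem14c, a mitochondrial membrane protein that red cell precursors need to bring protoporphyrinogen into the matrix, was the gene that fell. It measured 10.33, 10.29 and 10.41 on the Fog1ki/ki arrays and 10.75, 10.95 and 10.95 on the Fog1+/+ arrays. Every Fog1ki/ki array lay below every Fog1+/+ array, with a log2 difference of -0.54 and an SE of 0.10 (limma adjusted p = 0.0469). Leaving out any 1 of the 6 arrays ended the call (limma adjusted p 0.0875 to 0.236), as did repeated quantile normalization (0.0796), testing all probe sets (0.0529), a term for the arrays with low Y-linked values (0.0683) and the removal of both of those arrays (0.362), which left 0 genes of the list past the threshold in limma (3 at an unadjusted p under 0.05). Its log2 difference stayed between -0.61 and -0.46.

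The next genes by p in that list did not pass. Nfe2l2, the transcription factor NRF2 that drives antioxidant and haem breakdown genes, measured 10.34, 10.16 and 10.24 on the Fog1ki/ki arrays and 10.72, 10.65 and 10.58 on the Fog1+/+ arrays, a log2 difference of -0.40 (limma adjusted p = 0.133). Hspa9, the mitochondrial chaperone that works with the cluster scaffold, had a log2 difference of -0.26, and Clpx, which activates the haem enzyme encoded by Alas2, had one of -0.32. Mcoln1, a lysosomal channel that passes iron, had a log2 difference of 0.35. Of the 50 genes, 2 were higher and 8 lower with an unadjusted p under 0.05, as were 981 and 901 of all 19661 genes. Among the 8 lower genes were Slc25a38, the mitochondrial glycine carrier for haem synthesis (-0.29), and Eif2ak1, the kinase that slows translation when haem is short (-0.22), with limma adjusted p = 0.435 for both.

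**Figure D4:**
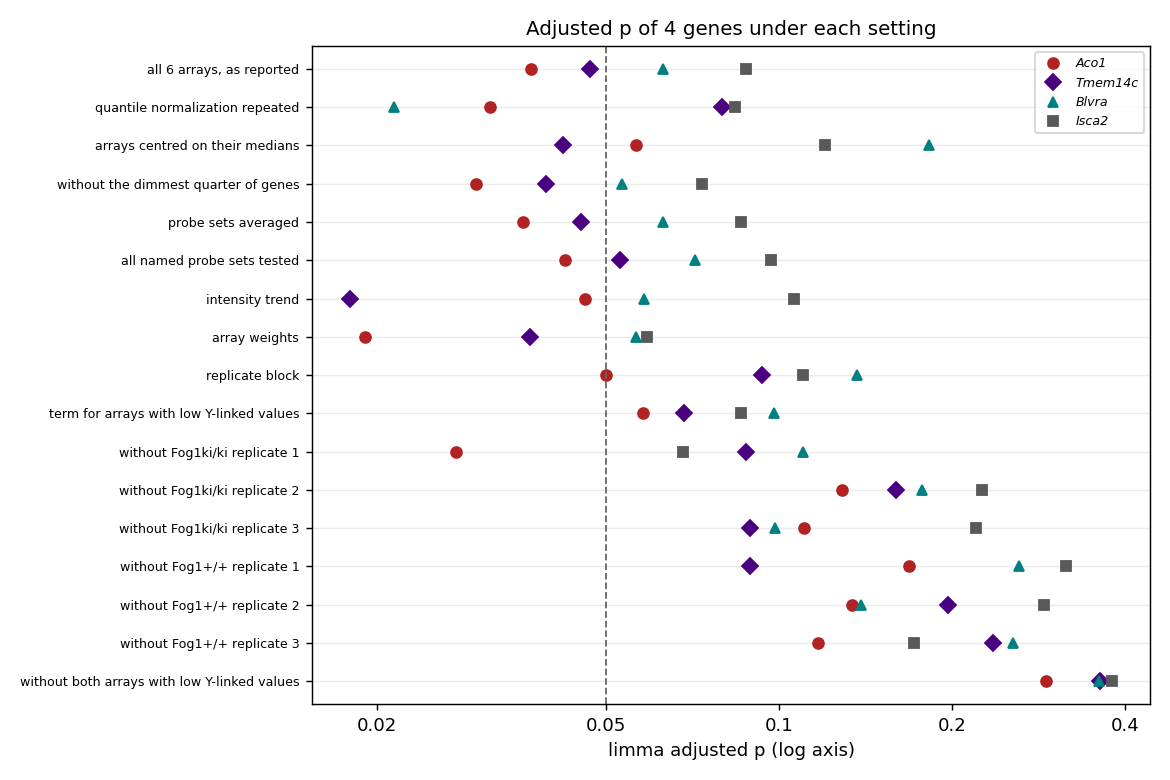
Adjusted p from limma (log axis) of Aco1, Tmem14c, Blvra and Isca2 with all 6 arrays and under each of 16 other settings, with a dashed line at 0.05. Aco1 lies left of the line with all 6 arrays and in 7 of the other settings, Tmem14c in 5 of them, Blvra in 1 and Isca2 in 0.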

How the data were processed

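RNA from 6 sorted samples had been extracted with Trizol, amplified with the WT-Ovation Pico system and hybridised to 1-colour arrays, per the labels' protocols. The deposited values are log2 values per probe set made with RMA (background correction, quantile normalization, summary over probes), per the submitters' processing notes. No source states the log2 scale, which was inferred from their range, and RMA's settings are not given there. The platform annotation, which can be old, gave 1 gene to 20777 of 25668 probe sets, several to 232 and none to 4659.

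The 19661 genes were tested two-sided between genotypes with lmFit and eBayes of limma 3.58.1 (R 4.3.3), with no other term, no filter on dim genes, Benjamini-Hochberg adjustment over all genes and calls at an adjusted p under 0.05. Gene lists and the rule for named genes were chosen with earlier results of these data known. By that rule every measured gene is named, and array values are given for genes past the threshold, the 4 smallest p of each step and the iron-responsive genes. Hmox1, Tfr2 and the gene pairs were added after their values were seen. The genes of the wider list named besides Tmem14c and several of the cell type markers named also lie outside that rule. In simulated data of 19661 genes, limma recovered 20, 43, 48 and 49 of the 50 genes given a true log2 change of 0.5, 1, 1.5 and 2, and called 5 of 19461 unchanged genes. The simulated noise was normal, independent and equal in both genotypes, with the SDs shuffled among genes. Correlations between the real arrays were 0.988 to 0.992 within Fog1ki/ki and 0.993 to 0.994 within Fog1+/+. The simulated counts are therefore not the recovery to be had from the real arrays. The number of arrays limits the precision.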

Additional observations from a re-analysis of the deposited data

How the results depend on the processing

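In addition to the settings given beside Aco1, Blvra and Tmem14c, the count of haem and iron genes past the threshold, 1 over all arrays, was 2 with quantile normalization repeated and 3 at an adjusted p under 0.1. It was 0 with arrays centred on their medians, with low Y-linked values entered as a term and without both such arrays. In each of these 3 settings 5 of the 36 genes had an unadjusted p under 0.05 in limma. Of all 19661 genes, 1832, 1777 and 1222 did so in the same order. The count past the threshold was 0 to 1 with each array left out in turn. It stayed at 1 in the other settings run apart from the replicate block. Over all genes 152 passed, 60 to 134 with 1 array left out (82 without Fog1ki/ki replicate 2, and 60, 83 and 60 without Fog1+/+ replicate 1, 2 and 3), and 24 without both arrays with low Y-linked values. The median of the 6 haem breakdown and export genes turned to -0.013 with arrays centred on their medians, a setting that moved the median of all genes by -0.05. The median of the 15 iron uptake, storage and sensing genes, 0.007 over all arrays, had no stable sign: it was negative in 5 of 16 settings and ran from -0.047 (arrays centred) to 0.067, within the SD between arrays of 0.071. Medians of haem synthesis and iron-sulphur cluster genes kept their sign and moved by less than their SD between arrays (0.081 and 0.12). Of the 36 genes, 23 kept the sign of their difference in every setting that tested them (16, or 15 for Heph, which the filter on dim genes leaves out), and the 13 that did not had differences of at most 0.12 in size over all arrays.

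Replicate numbers are shared by the genotypes, and replicate 3 was the array with low Y-linked values in both. The correlations of deviations between arrays of the same number were 0.07, -0.01 and 0.13, and 4 of 6 arrays correlated best with their own number. These values do not settle whether the numbers mark pairs. The labels state no pairing, so the main test did not take the numbers as pairs. With the replicate number as a block, 133 genes passed, 0 of them haem and iron genes, with Aco1 at a limma adjusted p of 0.0501 and Tmem14c at 0.0935. In that setting 5 of the 36 haem and iron genes and 1800 of all 19661 genes had an unadjusted p under 0.05 in limma. Dim genes such as Heph have compressed differences after RMA.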
